A study of Saccharomyces cerevisiae with 6 samples.

Results

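The 35 genes described here encode proteins of the cell wall of budding yeast and the enzymes that build, join and trim it. They were chosen by gene name and by their role in the wall from the 6679 open reading frames (ORFs) of 1 expression table, and they were picked from these libraries with the response to inducer already known. The counts and tests below therefore describe these genes and support nothing about how the list as a whole behaves. Saccharomyces cerevisiae of the strain SK1, labelled as wild type (WT) in genotype, was put into sporulation medium to undergo meiosis. After 5 h the cells received ethanol as the vehicle or the inducer, which the labels call bEST, and cells with inducer carried strongly driven spliced HAC1 mRNA. RNA was taken 1, 1.5 and 2 h later from each treatment, that is, at 6, 6.5 and 7 h of sporulation. That gave 3 vehicle and 3 inducer libraries of poly(A)-selected mRNA, paired by hour, with 1 library for each treatment and hour. The labels do not say which construct drove HAC1, nor whether the hours were sampled from 1 culture of each treatment. Libraries with inducer but no driven HAC1 were not analysed here, so effects of the inducer itself and of HAC1 cannot be told apart.

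The yeast wall is a mesh of beta-glucan with a little chitin, covered by an outer layer of mannoproteins. Most of these proteins enter the endoplasmic reticulum (ER), receive mannose chains and often a glycosylphosphatidylinositol (GPI) anchor, and are then joined to glucan outside the cell. Hac1 is the transcription factor of the unfolded protein response, which raises the folding capacity of the ER through which wall proteins pass. In meiosis the wall of the mother cell becomes the ascus wall, and a separate spore wall is laid down by other enzymes.

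HAC1 itself stood at 127, 128 and 98.4 with vehicle and at 28926, 48866 and 53257 with inducer, where 3 values for a treatment are always those at 6, 6.5 and 7 h. All values are the deposited RPKM-type values, which are scaled by gene length and library size. KAR2, the main ER chaperone of the Hsp70 family and a target of Hac1, went from 964, 1064 and 798 with vehicle to 7190, 20196 and 23467 with inducer. Both genes were higher in each inducer library than in any vehicle library. Read numbers recovered from the values lay between 6.0 and 21.7 megareads per library, with vehicle at 6.5 h the shallowest and inducer at 6.5 h the deepest. The 10 markers of meiosis summed to 120565 to 191827 with vehicle and to 135478 to 163910 with inducer, most of which came from SPS4 alone (94147 to 162429 and 110059 to 143951). Their median difference was -0.01 at 6 h, -0.14 at 6.5 h and -0.69 at 7 h. All 10 lay below zero at 7 h, as did 3233 of all 6025 ORFs tested. Of the 10 markers, the early regulator IME1 (-1.04) and the recombination nuclease SPO11 (-0.68) were called lower with inducer. The 10 haploid mating markers found summed to 887 to 1017 with vehicle and 1126 to 2176 with inducer. MFA1, the a-factor gene, made up 1573 of the 2176 at 7 h, and MFA1 (1.19) and the protease gene BAR1 (1.28) were called higher, while the median change of the list was 0.09. The 12 markers of dividing and daughter cells summed to 596 to 625 and 799 to 1323, with AMN1 (2.83) and DSE1 (1.99) called higher and the cyclin gene PCL1 (-0.59) lower. AMN1 and DSE1 held 375 and 363 of the 1323 with inducer at 7 h, and of the 12 markers 6 lay below zero and 6 above. Of all 6025 ORFs tested, 3580 lay below zero and 2445 above, with 8.35% called lower and 10.0% higher. No marker was at 0 in any library, and the part of these other cell types in the differences below was not tested.

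Between them the 35 genes spanned more than 3 orders of magnitude in level, led by a pair of GPI mannoproteins. CWP1 (YKL096W), a mannoprotein of the wall, had the highest mean over the 6 libraries, 10446, which is at the 99.4th percentile of all ORFs. SED1 (YDR077W), a mannoprotein typical of cells in stationary phase, followed with 4665. Next came the glucan-modifying enzyme BGL2 (YGR282C) with 1287 and the mannoprotein CCW12 (YLR110C) with 1033. At the other end stood DAN1 (YJR150C), a mannoprotein known from anaerobic growth, with 3.32 to 6.33 from 9 to 24 recovered reads per library. DAN1 was the 1 member below the minimum mean of 5 and was not tested. In the order of mean levels, neighbours overlapped in their ranges over the 6 libraries except CWP1 and SED1, SED1 and BGL2, and SCW11 and DAN1. All members together came to 30197, 35205 and 28017 with vehicle and to 23885, 19004 and 19522 with inducer, so the summed level was lower in all 3 inducer libraries. CWP1 and SED1 made up 54.4 to 60.8% of that sum, and the whole sum was 0.507 to 0.923% of all values in a library.

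**Figure D1:**
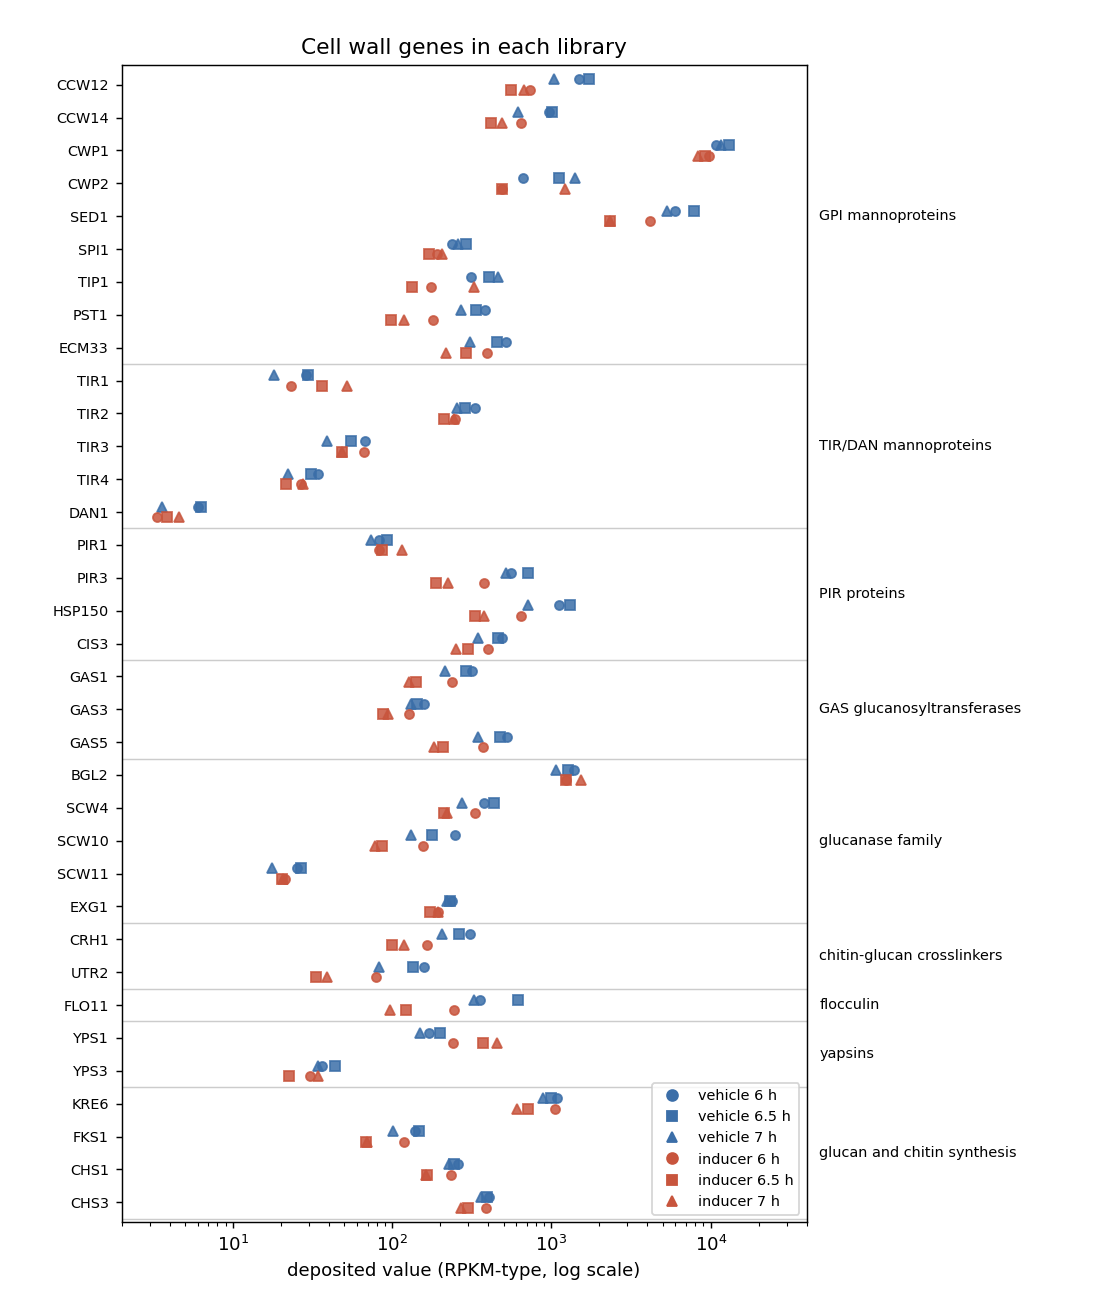
Deposited value of each of the 35 genes in each of the 6 libraries on a log axis, grouped by role, with vehicle in blue and inducer in red and 1 marker shape per hour. CWP1 and SED1 lie far to the right, DAN1 far to the left, and for PST1, CRH1 and UTR2 every red marker lies to the left of every blue one.

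**Figure D2:**
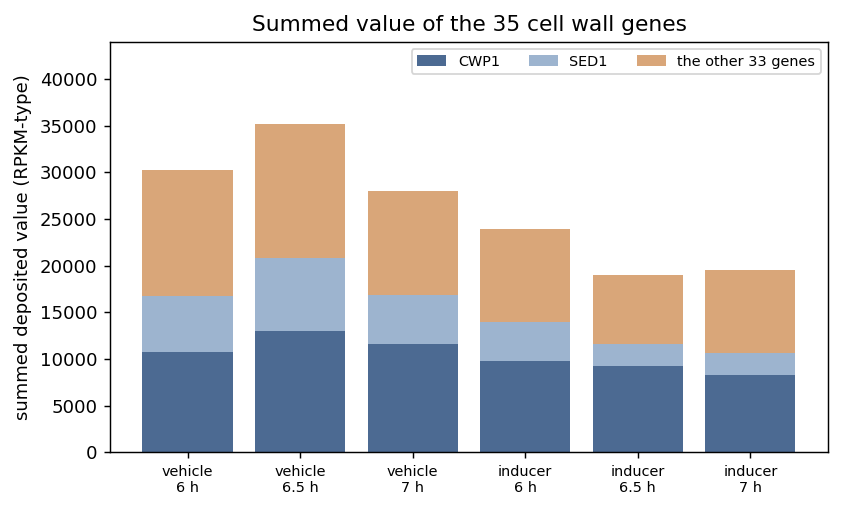
Summed deposited value of the 35 genes in each library, divided into CWP1, SED1 and the other 33 genes. The 3 inducer libraries sum to 19004 to 23885, below the 28017 to 35205 of the vehicle libraries.

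With inducer, 6 of 9 GPI mannoproteins outside the TIR and DAN family, 2 of 4 PIR proteins, all 3 GAS genes listed and both genes that join chitin to glucan were called lower. So were 1 of 5 glucanase genes, 1 of 4 synthesis genes and the flocculin FLO11, while the protease gene YPS1 was called higher. Of the 34 members tested, 16 were called lower and 1 higher. Among all 6025 ORFs tested, 8.35% were called lower and 10.0% higher. The test was limma-trend on log2(value + 1) with the hour as a block. A call means an adjusted p under 0.05 with Benjamini-Hochberg adjustment over all 6025 ORFs. A change is inducer minus vehicle on that log2 scale, averaged over the 3 pairs. Each ± is the moderated standard error (SE) of limma, which draws a gene's variance toward a trend fitted on all ORFs tested. It is therefore not the spread of that gene's own 3 differences alone. The median change of the 34 was -0.51, against -0.08 for all ORFs tested. A total of 29 members lay below zero and 5 above, and 24 had an unadjusted p under 0.05. Of all 6025 ORFs tested, 3580 lay below zero and 2445 above, and 2128 had an unadjusted p under 0.05. The decrease exceeded 2-fold for 8 of the 16 members called lower. For 13 members all 3 inducer libraries lay below all 3 vehicle libraries, and for 1 member above, where 14.1% and 17.3% of all ORFs did so. Without the 6 h pair 18 members were called lower, and so were 535 of all ORFs. Without the 6.5 h pair CRH1, PST1 and UTR2 were called lower, with 22 of all ORFs and a median change of the members of -0.35. Without the 7 h pair no member was called lower by limma, with 9 of all ORFs, although the median change was then -0.56. At that setting 23 members had an unadjusted p under 0.05, as did 1724 of all 6025 ORFs. YPS1 was called without the 6 h pair and not without either of the other two. Treating the libraries as unpaired left 145 of all ORFs and 8 members lower (CCW12, SED1, PST1, PIR3, HSP150, CRH1, UTR2 and FLO11), with YPS1 still higher. RNA came from whole cultures, so fewer cells of a type and less RNA per cell cannot be told apart.

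**Figure D3:**
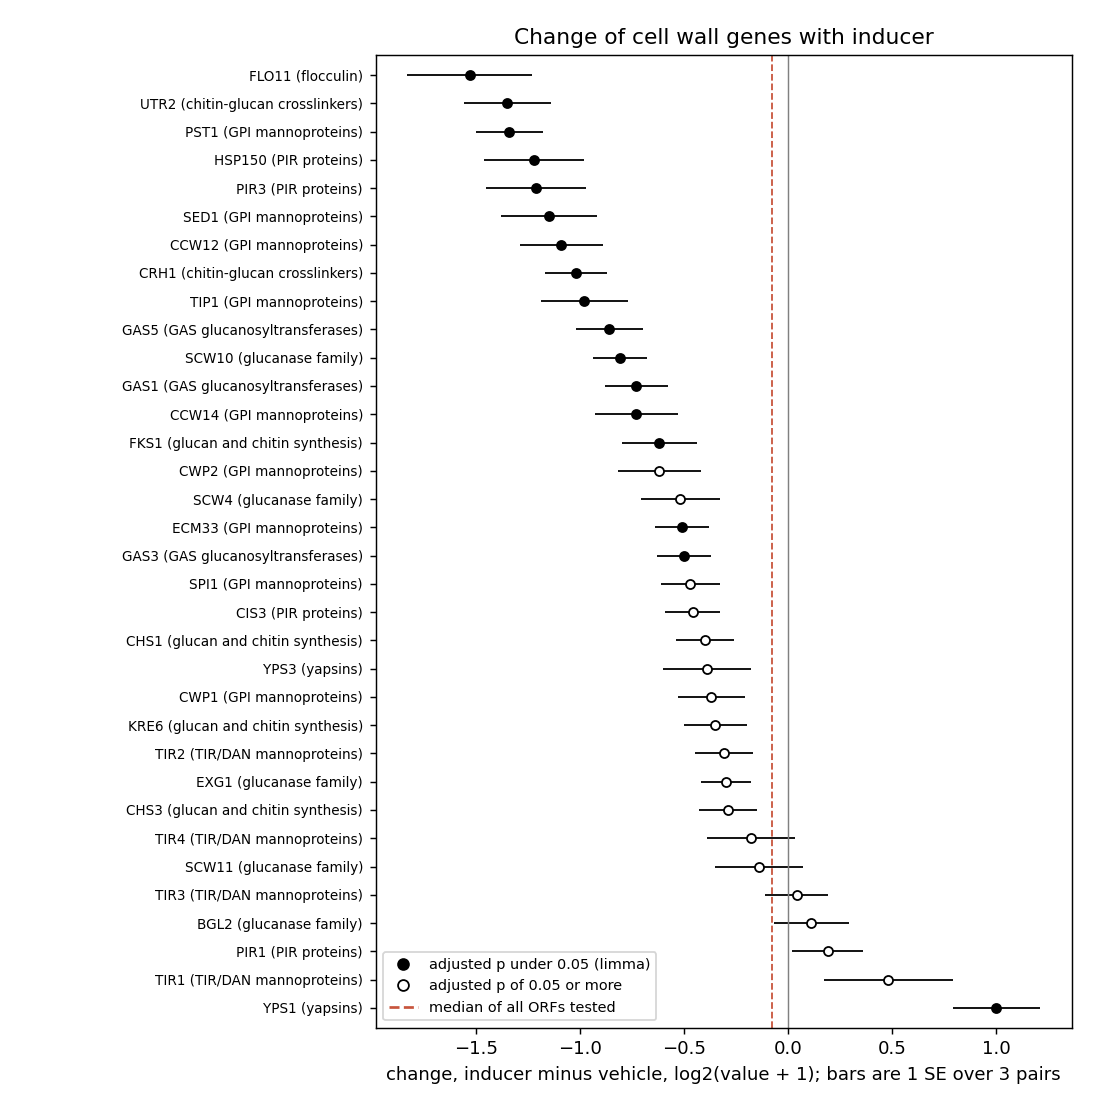
Change of each of the 34 tested genes between inducer and vehicle on the log2(value + 1) scale over 3 time-matched pairs, ordered from lowest to highest. Bars are 1 moderated SE of limma, and filled points mark an adjusted p under 0.05 by limma. FLO11, UTR2 and PST1 stand at the low end (-1.53, -1.35 and -1.34) and YPS1 alone is filled at the high end (1.00), while the dashed line marks the median of all ORFs at -0.08.

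Of the 9 GPI mannoproteins outside the TIR and DAN family, 6 were called lower and all 9 had a change below zero, with a median of -0.73. PST1 (YDR055W), a wall protein known to rise when the wall is damaged, stood at 384, 335 and 271 with vehicle and at 180.3, 98.9 and 118 with inducer. Every inducer library was below every vehicle library, and PST1 fell by 1.34 ± 0.16 (adjusted p = 0.00294). SED1 stood at 5978, 7800.3 and 5344 with vehicle and at 4183, 2337 and 2347 with inducer. The treatments did not overlap, and the gap was narrowest at 6 h. SED1 fell by 1.15 ± 0.23 (adjusted p = 0.0175). CCW12, an abundant protein of the growing wall, stood at 1479, 1715 and 1042 with vehicle and at 731, 555 and 676 with inducer. Again no library overlapped, with a change of -1.09 ± 0.20 (adjusted p = 0.0135).

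TIP1 (YBR067C), a mannoprotein induced by cold, differed from these in that its level went up between 6 and 7 h in both treatments. Its values were 310.3, 404 and 461 with vehicle and 174, 133 and 324 with inducer. Inducer at 7 h lay above vehicle at 6 h, so the treatments overlapped, but inducer was the lower library in each pair (-0.98 ± 0.21, adjusted p = 0.0201). CCW14 (YLR390W-A), a protein of the inner layer of the wall, stood at 959, 1003 and 616 with vehicle and at 642, 414 and 488 with inducer. The 2 ranges met only through vehicle at 7 h, which lay below inducer at 6 h, and CCW14 fell by 0.73 ± 0.20 (adjusted p = 0.0420). ECM33 (YBR078W), which is needed for normal wall structure, stood at 516, 454 and 309 with vehicle and at 396, 290.2 and 218 with inducer. It declined in both treatments and the ranges overlapped, with the inducer library the lower one at each hour (-0.51 ± 0.13, adjusted p = 0.0363).

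The remaining 3 of these mannoproteins did not pass the threshold. CWP1 stood at 10769, 13036 and 11560.1 with vehicle and at 9812, 9226 and 8276 with inducer. The treatments did not overlap, and the change of -0.37 ± 0.16 had an unadjusted p of 0.0468 that did not pass after adjustment by limma (adjusted p = 0.136). CWP2 (YKL096W-A), another wall mannoprotein and its neighbour on the chromosome, stood at 666, 1108 and 1409 with vehicle and at 490.3, 486 and 1212 with inducer, a change of -0.62 ± 0.20 with an adjusted p of 0.0740. SPI1 (YER150W), a mannoprotein of stationary and acid-stressed cells, ranged from 236 to 290 with vehicle and from 170.2 to 205 with inducer, with no overlap and an adjusted p of 0.0585.

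The TIR and DAN mannoproteins are serine- and alanine-rich wall proteins known from cold and anaerobic growth. Of the 4 members of this family tested, none passed the threshold in either direction by limma. None had an unadjusted p under 0.05 either. Their median change was -0.07, with a median difference of -0.32 at 6 h, -0.31 at 6.5 h and 0.30 at 7 h. TIR2 (YOR010C) was the most abundant, at 255 to 333 with vehicle and 211 to 249 with inducer, which did not overlap (-0.31 ± 0.14, adjusted p = 0.152). TIR1 (YER011W) stood at 28.7, 29.5 and 18.2 with vehicle and at 23.1, 36.4 and 51.8 with inducer, so that inducer was below vehicle at 6 h and above it at 6.5 and 7 h. Its change over the pairs was 0.48 ± 0.31 (adjusted p = 0.309). TIR3 (YIL011W) had a change of 0.04 ± 0.15 and TIR4 (YOR009W) one of -0.18 ± 0.21, both with overlapping libraries. Of relatives that are not members, DAN4 was called higher (1.35 ± 0.21, adjusted p = 0.00785). DAN2 (-0.40 ± 0.14) and DAN3 (-0.21 ± 0.18) were not called.

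The 4 PIR proteins among the members, which carry internal repeats and are tied directly to glucan, were unequal among themselves. Their relative PIR5 (YJL160C), which is not a member, had a mean of 27268 over the 6 libraries. It was not called by limma (-0.16 ± 0.15, adjusted p = 0.466). HSP150 (YJL159W), a heat-inducible PIR protein, stood at 1108, 1304 and 708 with vehicle and at 644, 332 and 375 with inducer. PIR3 (YKL163W) stood at 555, 710 and 517 with vehicle and at 378, 189.7 and 225 with inducer. In both genes all inducer libraries lay below all vehicle libraries, the largest gap being at 6.5 h. HSP150 fell by 1.22 ± 0.24 (adjusted p = 0.0153) and PIR3 by 1.21 ± 0.24 (adjusted p = 0.0161). CIS3 (YJL158C) ranged from 348 to 491 with vehicle and from 251 to 400.0 with inducer, a change of -0.46 ± 0.13 just short of the threshold (adjusted p = 0.0525). PIR1 (YKL164C) ranged from 73.1 to 92.7 with vehicle and from 82.7 to 116 with inducer, with a change of 0.19 ± 0.17 (adjusted p = 0.467).

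All 3 GAS genes among the members, whose products belong to a family that elongates and branches beta-glucan chains at the cell surface, were called lower. Their spore-specific relatives GAS2 (-0.05 ± 0.16, adjusted p = 0.836) and GAS4 (-0.07 ± 0.16, adjusted p = 0.778) were not called and stood higher, with means over the 6 libraries of 2809 and 4404. GAS5 (YOL030W) stood at 524, 475 and 344 with vehicle and at 373, 208 and 183 with inducer. GAS1 (YMR307W), the main enzyme of the family in growing cells, stood at 315, 291 and 214 with vehicle and at 239, 141 and 128 with inducer. For both genes the level declined with time in each treatment, and the treatments overlapped only through inducer at 6 h, which lay above vehicle at 7 h. The changes were -0.86 ± 0.16 for GAS5 (adjusted p = 0.0144) and -0.73 ± 0.15 for GAS1 (adjusted p = 0.0198). GAS3 (YMR215W) stood at 159.5, 144 and 131 with vehicle and at 127, 87.6 and 94.5 with inducer. It showed no overlap, with a smaller change of -0.50 ± 0.13 (adjusted p = 0.0364).

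Of 5 genes of the glucanase families, only SCW10 (YMR305C), a soluble wall protein related to glucanases, was called. Its values were 249.6, 177 and 131 with vehicle and 157, 86.6 and 77.6 with inducer, falling from hour to hour in both treatments. Inducer at 6 h lay above vehicle at 7 h, so the ranges overlapped, and the change between treatments was -0.81 ± 0.13 (adjusted p = 0.00806). BGL2, the major glucan-modifying enzyme of the wall and the third most abundant member, stood at 1382, 1274 and 1060.3 with vehicle and at 1226, 1241 and 1540.4 with inducer. Its libraries overlapped, with inducer above vehicle only at 7 h (0.11 ± 0.18, adjusted p = 0.691). SCW4 (YGR279C), a relative of SCW10, ranged from 273 to 437 with vehicle and from 210.1 to 331 with inducer (-0.52 ± 0.19, adjusted p = 0.0943). EXG1 (YLR300W), the major exoglucanase, ranged from 219.9 to 239 with vehicle and from 172 to 194 with inducer, without overlap, and did not pass the threshold (-0.30 ± 0.12, adjusted p = 0.129). SCW11 (YGL028C), whose product acts in the separation of daughter cells, was low throughout, from 17.6 to 26.9 with vehicle and from 20.3 to 21.2 with inducer.

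Both chitin-glucan crosslinkers were called lower. UTR2 (YEL040W) and CRH1 (YGR189C) encode transglycosylases that join chitin to beta-glucan. UTR2 stood at 158, 135 and 82.7 with vehicle and at 78.9, 33.1 and 39.1 with inducer. CRH1 stood at 306, 263 and 207 with vehicle and at 165, 100.2 and 119 with inducer. In neither gene did any inducer library reach the lowest vehicle library. UTR2 fell by 1.35 ± 0.21 (adjusted p = 0.00727) and CRH1 by 1.02 ± 0.15 (adjusted p = 0.00657), and together with PST1 they were the members still called when the 6.5 h pair was left out.

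FLO11 (YIR019C, given as MUC1 in the table), the flocculin behind adhesion and filamentous growth, had the largest change of the members. It stood at 358, 613 and 326 with vehicle and at 246, 123 and 96.8 with inducer. The vehicle peak at 6.5 h and the low inducer values at 6.5 and 7 h gave a difference of -2.31 and -1.74 at these hours, against -0.54 at 6 h. FLO11 fell by 1.53 ± 0.30 over the pairs (adjusted p = 0.0155). Its coding sequence is repetitive and did not match the reference length, so its level relative to other genes is uncertain.

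The yapsins are GPI-anchored aspartyl proteases of the cell surface that process wall proteins. YPS1 (YLR120C) was the 1 member called higher, with 169.5, 199 and 149 in vehicle and 239, 372 and 454 in inducer. All inducer libraries lay above all vehicle libraries, and the difference was 0.50 at 6 h, 0.90 at 6.5 h and 1.60 at 7 h. Over the pairs the change was 1.00 ± 0.21 (adjusted p = 0.0189). YPS3 (YLR121C), which lies next to YPS1 in the reference gene order, ranged from 34.1 to 44.0 with vehicle and from 22.5 to 34.1 with inducer (-0.39 ± 0.21, adjusted p = 0.226). Whether the changes of the 2 yapsins differ was not tested.

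Of the 4 synthesis genes, 1 was called lower, and the median change was -0.38. FKS1 (YLR342W), the catalytic subunit of beta-glucan synthase, stood at 138, 148 and 101 with vehicle and at 118, 68.5 and 69.9 with inducer. The treatments overlapped because inducer at 6 h lay above vehicle at 7 h. The change of FKS1, -0.62 ± 0.18, was at the edge of the threshold (adjusted p = 0.0498). FKS1 passed under 4 of 11 alternative settings, the fewest of the members called. The most was 9 of 11, for PST1, CRH1 and UTR2. KRE6 (YPR159W), which acts in the synthesis of the branched beta-glucan that anchors mannoproteins, ranged from 882 to 1090.4 with vehicle and from 609 to 1046 with inducer (-0.35 ± 0.15, adjusted p = 0.149). The chitin synthase genes CHS1 (YNL192W), used in repair after cell division, and CHS3 (YBR023C), which makes most of the chitin of the wall, had changes of -0.40 ± 0.14 (adjusted p = 0.0797) and -0.29 ± 0.14 (adjusted p = 0.186). For KRE6, CHS1 and CHS3 the 6 h libraries were nearly level, with differences of -0.06, -0.16 and -0.06.

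The differences of most members were largest 1.5 h after the addition. The median difference over the 34 tested members was -0.34 at 6 h, -0.85 at 6.5 h and -0.47 at 7 h, while that of all ORFs tested was -0.06, -0.11 and -0.04. Below zero were 32, 32 and 26 members at these hours, and 3572, 3565 and 3233 of all 6025 ORFs tested. Each of the 16 members called lower had its largest difference at 6.5 h, as did 75.3% of the 503 ORFs called lower in the whole table. In 7 of the 16 vehicle was highest at 6.5 h, and in 11 inducer was lowest at that hour. The 6.5 h pair joins the shallowest and the deepest library, and the part of depth in this was not tested. TIR1, TIR3, TIR4, DAN1, PIR1, BGL2, SCW11 and both yapsins were at or above zero at 7 h, from 1 library per treatment.

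**Figure D4:**
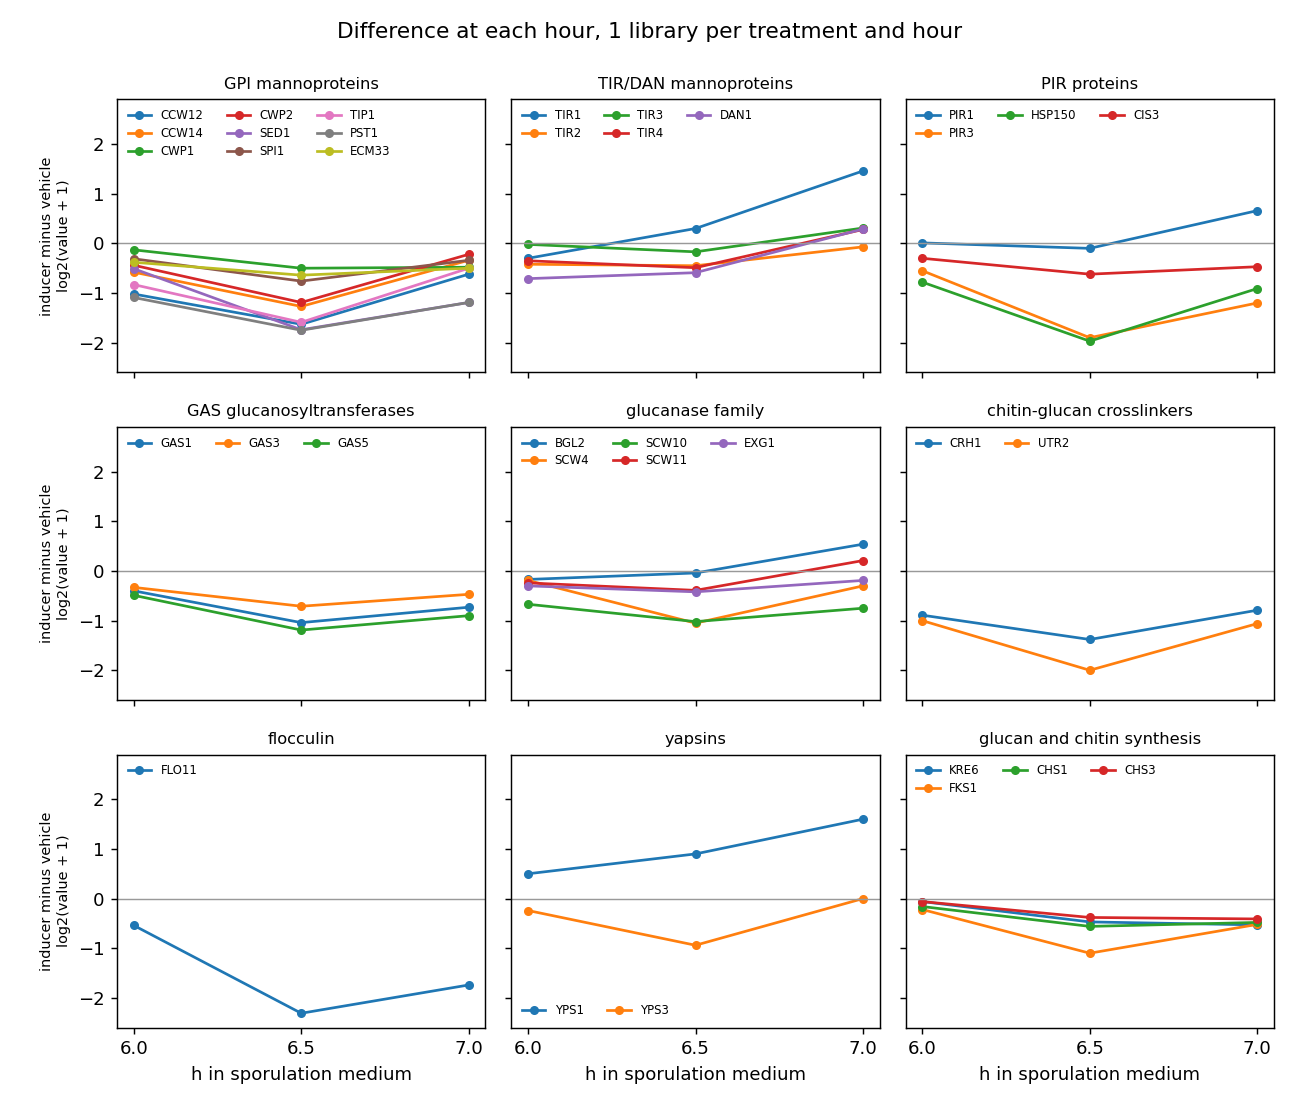
Difference between inducer and vehicle at 6, 6.5 and 7 h for each of the 35 genes on the log2(value + 1) scale, 1 panel per role and 1 line per gene, from 1 library per treatment and hour. Most lines dip at 6.5 h, whereas YPS1 climbs from 0.50 to 1.60 and TIR1 from -0.30 to 1.46.

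Over the hour from 6 to 7 h, with both treatments sharing 1 slope, 1 of 34 members passed the threshold. SCW10 fell by 0.96 ± 0.16 per hour on the log2 scale (adjusted p = 0.0483). Of all ORFs tested, 0.415% were called lower with time and 0.249% higher. The median slope of the members was -0.39 per hour, against -0.15 for all ORFs. An unadjusted p under 0.05 was found for 16 members and for 1335 of all 6025 ORFs tested. CWP2 had the steepest rise (1.19 ± 0.25 per hour, adjusted p = 0.0636). Rescaling the libraries by the median ratio moved the median slope of all ORFs to 0.01, and then CWP2 was called higher and SCW10 was not called. The call of SCW10 was also lost when any 1 of the 6 libraries was left out.

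No member passed the test of whether the treatments differed in their slopes, and 0.0% of all ORFs did by limma, although 714 ORFs had an unadjusted p under 0.05. Of the members, 3 had an unadjusted p under 0.05, all with a slope that was more positive with inducer. The difference in slope was 1.76 ± 0.43 per hour for TIR1 (adjusted p = 0.182), 1.11 ± 0.33 for YPS1 (adjusted p = 0.260) and 0.71 ± 0.29 for BGL2 (adjusted p = 0.384).

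In the gene order of the reference genome, 5 pairs of members lie directly next to each other. The neighbours HSP150 and CIS3 changed by -1.22 and -0.46, CWP2 and CWP1 by -0.62 and -0.37, and TIR4 and TIR2 by -0.18 and -0.31. In the other two pairs the values lay on opposite sides of zero, with 0.19 for PIR1 beside -1.21 for PIR3, and 1.00 for YPS1 beside -0.39 for YPS3. SCW10 and GAS1 are separated by 1 ORF and changed by -0.81 and -0.73. With the reference coding lengths, 25 of 35 members (71.4%) gave whole reads within 0.05 in all 6 libraries, and 5201 of 5673 ORFs (91.7%) did so. These shares describe the table and were not tested. For SED1 a coding length of 975 bp fitted where the reference gives 1017 bp, for TIP1 705 against 633 bp, for ECM33 1404 against 1290 bp and for CRH1 1476 against 1524 bp. For FLO11 and TIR3 no length near the reference fitted. A wrong length would shift a gene's level in all libraries alike and hardly touch its change between treatments.

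Other genes of wall biology gave a mixed picture. Among 29 further wall proteins and enzymes, 3 were called higher and 3 lower, with a median change of -0.21. This count and those of the lists below stand beside 10.0% higher and 8.35% lower among all ORFs tested. DAN4, an anaerobic mannoprotein, rose by 1.35 ± 0.21 (adjusted p = 0.00785). PRY3 (1.26 ± 0.35) and PLB1 (1.08 ± 0.23) were the others called higher. The SUN family genes NCA3 (-1.30 ± 0.24) and UTH1 (-1.10 ± 0.21) fell, as did TOS6 (-1.45 ± 0.31). Of 24 further genes of glucan and chitin synthesis, 2 were called higher and 2 lower (median -0.06). The higher ones act in the ER: KEG1, which binds Kre6 there, went from 395, 333 and 379.6 with vehicle to 1177, 2527 and 2369 with inducer (2.38 ± 0.25, adjusted p = 0.00213), and KRE5 from 35.9, 30.5 and 25.7 to 69.8, 104 and 97.8 (1.52 ± 0.20, adjusted p = 0.00442). In both genes every inducer library lay above every vehicle library. The lower ones were KRE9 (-0.62 ± 0.16) and SMI1 (-0.59 ± 0.15).

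The 21 Golgi genes of mannose chain synthesis had 4 called higher and none lower, with a median of 0.16. Among all ORFs tested, 10.0% were called higher and 8.35% lower. Of the 21 Golgi genes, 8 had an unadjusted p under 0.05, as did 2128 of all 6025 ORFs tested. KTR1 rose by 1.63 ± 0.22, HOC1 by 1.22 ± 0.22, OCH1, which starts the outer chain, by 0.71 ± 0.16 and MNN2 by 0.54 ± 0.15. Of 19 genes of the cell wall integrity pathway, which senses wall stress, 3 were called lower and none higher (median -0.21). These were the surface sensors MTL1 (-1.01 ± 0.23), MID2 (-0.87 ± 0.18) and WSC3 (-0.53 ± 0.15). None of the 17 spore wall genes was called in either direction by limma, and none had an unadjusted p under 0.05, with a median of -0.08. Their median difference was 0.09 at 6 h, with 14 above zero, and -0.38 at 7 h, with 15 below. Of all 6025 ORFs tested, 2451 were above zero at 6 h and 3233 below at 7 h. For the difference in slopes 16 of the 17 lay below zero and 3 had an unadjusted p under 0.05, none of which passed after adjustment. Among all 6025 ORFs, 2645 slope differences lay below zero and 714 had an unadjusted p under 0.05. No difference between these lists and the 35 genes was tested.

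**Figure D5:**
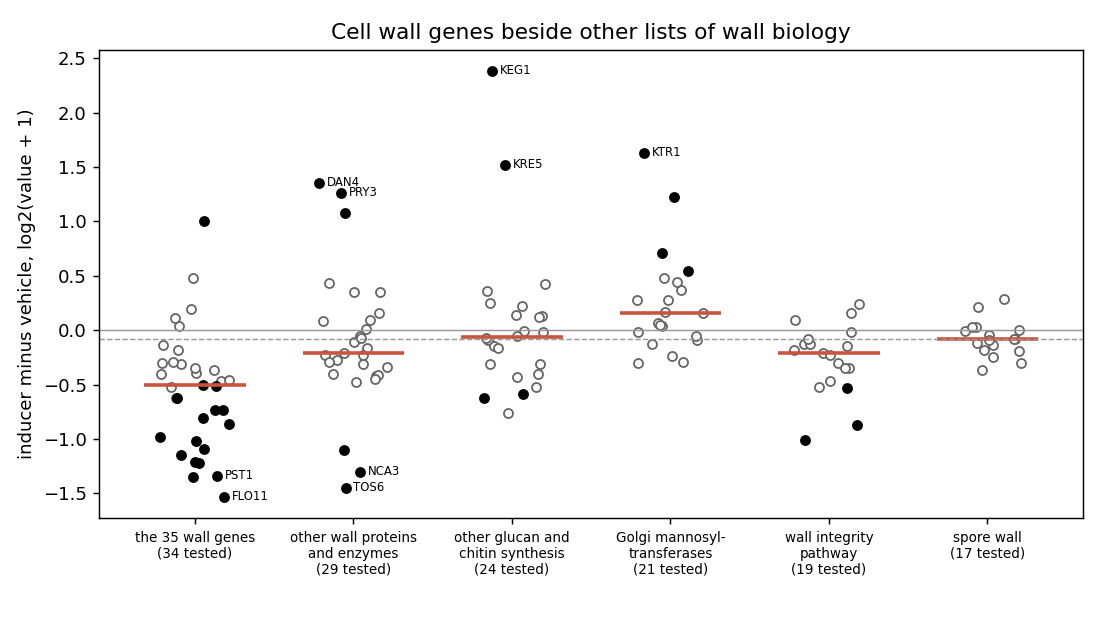
Change between inducer and vehicle, log2(value + 1), of each gene tested in the 35 wall genes and in 5 other lists of wall biology, with filled points for adjusted p under 0.05 by limma, a red bar at each list's median and a dashed line at the median of all ORFs. The bar of the 35 genes is at -0.51, while those of the other lists lie between -0.21 and 0.16, and KEG1 (2.38) is the highest point shown.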

How the data were processed

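The authors deposited 1 table of RPKM-type values for 6679 ORFs in 6 libraries of 50 bp directional reads. The unit was read from the values, and the sources used here do not name the build, annotation, filters or strand setting. Bowtie2, TopHat and SAMtools were used, per the submitters' processing notes. Reads of overlapping, antisense or near-identical genes (the PIR and TIR families) may be divided wrongly. Of low values, 74.1 to 79.9% were whole reads within 0.02 once 60 bp was taken from the coding length, against 6.19 to 7.69% without. These reads served to describe depth and entered no test. There was no replicate of any treatment at an hour.

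Values were tested as log2(value + 1) with limma-trend (limma 3.58.1, R 4.3.3), which understates changes of low genes, for 6025 ORFs with a mean of at least 5. The hour in the labels pairs the treatments and was the block. All p-values reflect only the spread among these libraries, which may be technical. For the change between treatments, that spread is how the difference varied between the hours. The moderated SE and the p of a gene mix its own spread with that of other ORFs at a like level. They hold no spread of replicates and may include a time course of the response. The test was also run on simulated libraries with independent errors, and no result here rests on that. Such a simulation cannot check serial sampling from 1 culture or the lack of replicates at an hour. Members and lists were chosen with earlier results of these data known. Named are all 35 members, HAC1, KAR2, and up to 4 called genes of each other list by smallest p. The called genes PLB1 and PRY3 and a few uncalled relatives and markers are named as well. The reference assembly R64 served for names, coding lengths and gene order. It may not be the build used, so coordinates and sequences are left out. The mating gene MFALPHA1 was not matched. Alternatives changed the pseudocount, filter, scaling, trend, time coding and libraries used.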

Additional observations from a re-analysis of the deposited data

How the results depend on the processing

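Between inducer and vehicle, the counts of members called (1 higher and 16 lower) stayed within 1.5 times under other pseudocounts, a mean of at least 20, median-ratio scaling, limma without the trend and time as a linear covariate. With no filter on low values 0 were higher and 0 lower, although 20 had an unadjusted p under 0.05. Of all 6679 ORFs 3 were then higher and 0 lower, and 1863 had an unadjusted p under 0.05. With no replicate block 8 were lower (145 of all ORFs). Leaving out 1 pair gave 0 to 1 higher and 0 to 18 lower (9 to 535 of all ORFs). Over time, the count of 1 lower became 0 with no filter, with limma without the trend, with 7 h compared to 6 h as a level, under median-ratio scaling (which gave 1 higher) and without any 1 library (0 to 0). Treatment by time called 0 members under all settings run; without inducer at 6.5 h it called 86 ORFs higher and 13 lower, and without inducer at 7 h 68 and 18. The causes were not tested, except that leaving out a pair removes libraries by construction.

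Signs turned only for changes that were not called. Without 1 pair, changes between treatments ran from -0.003349 to 0.876 for TIR1, -0.096 to 0.146 for TIR3, -0.049 to 0.331 for PIR1 and -0.105 to 0.250 for BGL2, the negative values being those without the 7 h pair. Per hour and with median-ratio scaling they were CWP1 (0.095), BGL2 (0.140) and EXG1 (0.102). Per hour and without 1 library, they ran from -0.266 to 0.046 for CWP1, -0.304 to 0.922 for TIR1, -0.113 to 0.452 for PIR1, -0.778 to 0.019 for PIR3, -0.299 to 0.216 for BGL2, -0.421 to 0.00073 for SCW11, -0.034 to 0.828 for YPS1 and -0.229 to 0.244 for YPS3.

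The interaction could not be refitted without a whole pair, which leaves no residual degrees of freedom. Promoter motif shares and protein features were planned and not run. Depth limits DAN1 most, with 9 to 24 reads per library.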
